A study of Mus musculus with 18 samples.

Results

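The comparison set 2 libraries of female induced pluripotent stem cells (iPSC) against 4 libraries of female embryonic stem cells (ESC), on the 19 autosomes of the mouse. Its units were fixed windows of 1 kb, called tiles. A tile entered when each of the 6 libraries held at least 3 CpGs with 5 or more reads in it, both strands of a CpG added together. In all, 55792 tiles met this rule, of 129833 autosomal tiles that had 3 such CpGs in at least 1 of the 6 libraries. The series holds 18 libraries made by reduced representation bisulfite sequencing (RRBS), an assay that cuts DNA with a restriction enzyme, keeps short CpG-rich fragments and reads a methylated cytosine as one that bisulfite did not convert. Besides the iPSC and female ESC it covers male ESC, mouse embryonic fibroblasts (MEF) of both sexes, and SSEA1+ and SSEA1- reprogramming intermediates, SSEA1 being a surface antigen of mouse pluripotent cells. Its title concerns the reactivation of the X chromosome while cells return to pluripotency; the comparison here is of the autosomes. The sample titles give the cell type of every group, and the sex of all but the SSEA1+ and SSEA1- groups. The labels give no strain, clone, passage, culture medium or reprogramming method. They do not say whether libraries of a group came from separate cultures, so p-values measure only the spread between these libraries, which may be technical.

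In mammals DNA methylation is found mainly at CpG dinucleotides, where Dnmt1 copies it at replication with the help of Uhrf1, Dnmt3a and Dnmt3b add it anew, and Tet enzymes oxidise it as a first step of removal. CpG islands at promoters are mostly unmethylated, while most CpGs elsewhere are methylated in somatic cells. Reprogramming turns a somatic cell into a pluripotent one, and mouse ESC with a pair of active X chromosomes are known for low methylation over the whole genome, imprinted regions included.

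The windows printed here are RefSeq promoter sequences on build GRCm38.p6, from 250 bases before to 50 bases after a gene's start, written 5′ to 3′ on the gene's strand. Capitals mark the CpGs that reached 5 reads in all 6 libraries, so they show which letters the values rest on. The first 3 stand for promoters that were higher in iPSC. Mcts2 is the imprinted promoter with the largest difference, and Sox2 is a promoter of a pluripotency gene near the floor of the assay. On mm9, the build of the deposited files, the windows lie at chr6:73171576-73171875 for Dnah6 (minus strand), chr5:31410568-31410867 for Slc30a3 (minus strand), chr2:28302340-28302639 for Ppp1r26 (plus strand), chr2:152512634-152512933 for Mcts2 (plus strand) and chr3:34548667-34548966 for Sox2 (plus strand), as placed by the spacing of their CpGs.
Dnah6: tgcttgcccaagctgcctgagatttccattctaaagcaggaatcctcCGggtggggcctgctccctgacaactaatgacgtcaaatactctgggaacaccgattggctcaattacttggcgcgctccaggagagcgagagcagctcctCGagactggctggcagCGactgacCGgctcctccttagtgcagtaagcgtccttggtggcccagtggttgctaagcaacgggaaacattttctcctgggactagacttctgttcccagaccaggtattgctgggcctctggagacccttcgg
Slc30a3: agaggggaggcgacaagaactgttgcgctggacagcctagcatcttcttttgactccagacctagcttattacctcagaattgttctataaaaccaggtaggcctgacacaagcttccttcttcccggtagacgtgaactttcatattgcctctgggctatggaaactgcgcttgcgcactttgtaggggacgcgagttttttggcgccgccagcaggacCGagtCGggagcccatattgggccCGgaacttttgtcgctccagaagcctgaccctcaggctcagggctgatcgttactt
Ppp1r26: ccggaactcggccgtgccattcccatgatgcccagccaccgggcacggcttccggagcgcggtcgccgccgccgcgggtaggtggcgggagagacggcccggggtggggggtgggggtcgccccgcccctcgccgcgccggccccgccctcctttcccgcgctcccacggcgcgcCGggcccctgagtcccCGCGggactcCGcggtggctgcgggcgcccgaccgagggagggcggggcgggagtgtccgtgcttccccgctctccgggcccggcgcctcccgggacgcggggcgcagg
Mcts2: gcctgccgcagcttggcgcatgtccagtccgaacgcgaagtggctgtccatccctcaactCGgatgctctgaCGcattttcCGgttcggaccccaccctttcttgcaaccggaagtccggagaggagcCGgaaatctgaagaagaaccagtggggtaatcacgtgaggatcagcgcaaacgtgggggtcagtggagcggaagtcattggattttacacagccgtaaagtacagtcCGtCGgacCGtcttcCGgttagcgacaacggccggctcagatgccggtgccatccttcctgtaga
Sox2: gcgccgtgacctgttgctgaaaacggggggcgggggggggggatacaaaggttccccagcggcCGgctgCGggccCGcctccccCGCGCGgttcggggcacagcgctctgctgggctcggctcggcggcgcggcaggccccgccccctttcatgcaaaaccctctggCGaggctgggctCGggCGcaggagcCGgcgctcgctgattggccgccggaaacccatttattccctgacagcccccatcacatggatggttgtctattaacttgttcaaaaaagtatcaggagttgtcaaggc

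Depth and library make differed between the groups. The iPSC libraries held 30357077 and 33243325 reads over autosomal CpGs, and the female ESC libraries held 11024718 to 18327490. The median tile had 187 and 209 reads in iPSC 1 and 2, against 60 to 101 in the ESC libraries. The share of CpGs read on both strands was 7.25% and 7.35% in iPSC and 10.1 to 11.7% in female ESC. By that share the 18 libraries fell into type C (under 8%), type A and type B (over 14%). Both iPSC libraries were type C and all 4 female ESC libraries were type A, so cell type and library type cannot be told apart within these 6 libraries. Female MEF held both of these types, with type C in MEF 3 and 4, type A in MEF 1 and type B in MEF 2, and their values are therefore given beside the results. The promoters taken as marks of pluripotent identity, Pou5f1 and Nanog among them, had no placed tile, so the cell type labels were not checked at those loci.

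Autosomal methylation was higher in iPSC than in female ESC. Over the 401229 CpGs with 5 or more reads in all 6 libraries, the mean level, each CpG weighted equally, was 45% in iPSC 1 and 43.9% in iPSC 2, against 34.5%, 33.8%, 34.0% and 34.6% in ESC 1 to 4. The groups did not overlap, and libraries of a group lay close together. The means were 44.4% ± 0.78 in iPSC (SD, n = 2) and 34.2% ± 0.37 in female ESC (SD, n = 4), a difference of 10.2 percentage points (points from here on). The 2-sided exact permutation test gave p = 0.0667, which is the smallest that 2 libraries against 4 can give, as it was for the dense tiles and the floor described next (0.0667 after adjustment over the 3 tests). Over 377735 CpGs also read in 3 female MEF libraries, iPSC lay 10.2 points above female ESC. Over the same CpGs MEF 3 and 4 of type C, at 55.8% and 55.7%, lay 1.21 points above MEF 1 of type A, at 54.6%. Set against MEF of the same library type, iPSC stood at -11.1 points and female ESC at -20.1 points, 8.98 points apart.

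**Figure D1:**
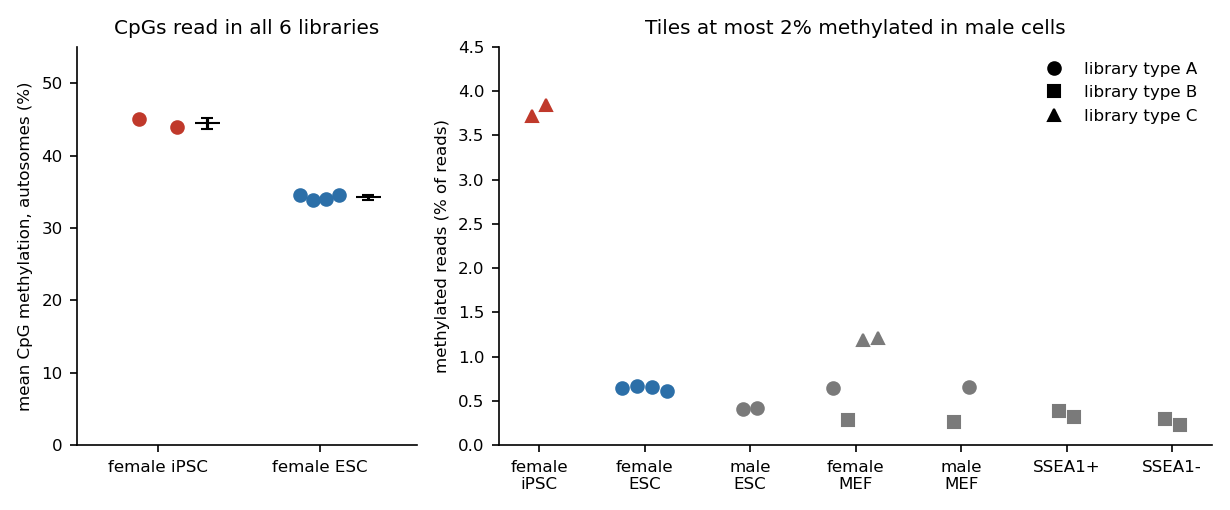
Left, mean CpG methylation in percent over the CpGs read in all 6 libraries, 1 point per library, with the mean and SD of the group beside it; the 2 iPSC libraries (45% and 43.9%) lie above the 4 female ESC libraries (33.8 to 34.6%). Right, percent of methylated reads at tiles that are at most 2% methylated in male cells, for all 18 libraries, with the marker giving the library type; iPSC (3.72% and 3.85%) stand above every other library, and the next are the 2 type C MEF libraries (1.19% and 1.21%).

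The iPSC libraries also had a raised floor. At the 10150 tiles that were at most 2% methylated in male ESC and in male MEF, which take no part in the comparison, the median level was 3.46% and 3.64% in iPSC, against 0.412%, 0.296%, 0.372% and 0% in female ESC. The difference of group means was 3.28 points (exact permutation p = 0.0667). Pooled over these tiles, 3.72% and 3.85% of reads were methylated in iPSC and 0.615 to 0.667% in female ESC. The 2 type C MEF libraries had 1.19% and 1.21%, and the type A female MEF library 0.646%. The floor was spread evenly: 97.4% and 98.6% of these tiles exceeded 1% in iPSC, against 21.9 to 24.2% in female ESC, and the plus and minus strand of iPSC 1 gave 3.72% each. By chromosome the median of iPSC 1 at these tiles lay between 3.28% and 3.75%. Among their CpGs with 20 or more reads, 68.6% and 73.6% had at least 1 methylated read in iPSC, against 9.44 to 10.5% in female ESC, while CpGs over 50% methylated made up 0.227% and 0.220% in iPSC, 0.0082 to 0.0161% in female ESC and 0.206% and 0.220% in the type C MEF libraries. Unconverted cytosine and true low methylation give the same reads here, and their parts were not tested. With each library's floor subtracted, the mean level difference was 8.75 points.

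Dense tiles, with 30 or more CpGs in each of the 6 libraries, stand in here for CpG islands. The 123 dense tiles averaged 9.13% and 8.72% in iPSC, against 5.31 to 5.55% in female ESC, without overlap. The difference of 3.48 points (exact permutation p = 0.0667) was close in size to the floor, and after subtraction of the floor it was 0.723 points.

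Across tiles most of the shift went 1 way. The iPSC mean lay above the female ESC mean at 50261 tiles (90.1%), with a median difference of 7.53 points over all tiles. A quasi-binomial logistic model per tile, with Benjamini-Hochberg adjustment over all tiles, put 32054 tiles (57.5%) at an adjusted p under 0.05 and higher in iPSC, and 621 (1.11%) lower. Because a floor alone moves a tile by a few points, a tile is called higher or lower here only where the difference also reached 20 points. By this rule 10079 tiles were higher in iPSC (18.1% of all tested) and 187 were lower (0.335%). Samples of the groups did not overlap at 9817 and 184 of them; over all tiles this was so at 35112 with iPSC higher (62.9%) and at 1087 with iPSC lower (1.95%). The median difference of the called tiles was 25.7 points for higher and -25.9 points for lower. Tiles of only 3 or 4 CpGs made up 74.4% of the higher calls and 54.8% of all tiles. Leaving out iPSC 1 gave 4542 higher and 83 lower tiles, and leaving out iPSC 2 gave 5804 and 70.

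Since the library types read partly different CpGs of a tile, the test was repeated over the CpGs that all 6 libraries shared. Of 48257 tiles with 3 or more shared CpGs, 8202 were higher in iPSC (17.0%) and 137 lower (0.284%). Of the called higher tiles that could be tested this way, 7402 of 8653 were called again (85.5%), and of the lower ones 102 of 136 (75%). In the tiles called higher both times, 20048 of 29398 shared CpGs (68.2%) were at least 20 points higher in iPSC, against 16.9% of the shared CpGs of all tiles. At 971 of these 7402 tiles (13.1%) no more than 1 CpG was that much higher. A fit to all 18 libraries with library type as a term, over the 32195 tiles read in all of them, called 1094 higher (3.4%) and 56 lower (0.174%). Called in all 3 fits were 497 higher tiles, of 3220 called higher that all 3 fits tested, and 13 lower tiles, of 60. At the 9441 higher tiles also read in MEF of types A and C, the median of iPSC minus female ESC was 25.7 points and that of type C minus type A MEF was 1.90 points. Type C MEF was 20 points or more above type A at 507 of them (5.37%), against 2.49% of all tiles. At the 150 lower tiles read in both, type C MEF was that much below type A at 29 (19.3%), against 1.12% of all tiles.

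The tiles that were higher in iPSC were mostly tiles methylated in other cells. The median tile of the higher calls stood at 70.3% in iPSC and at 42.0% in female ESC, while male ESC had a median of 82.4% (8180 tiles) and female MEF of 81.9% (7724 tiles). Of the 6773 higher tiles read in male ESC and female MEF, 80.8% were at 50% or more in both, against 44.5% of all 42951 tiles read there. Only 133 (1.96%) were under 20% in both, against 36.2% of all tiles. The 187 lower tiles had medians of 22.4% in iPSC and 51.0% in female ESC, with 61.9% in male ESC (155 tiles) and 76.7% in female MEF (141 tiles).

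Grouped by the level in male ESC, which the test did not use, the gap was wider in the higher classes. Tiles of 0 to 10% in male ESC averaged 5.49% in iPSC and 1.44% in female ESC, and 1.07% of them were called higher. Tiles of 40 to 60% averaged 39.7% in iPSC and 30.4% in female ESC, with 16.7% called higher. Tiles of 80 to 90% averaged 71.0% in iPSC and 54.6% in female ESC, a gap of 16.4 points, with 34.2% called higher. In the highest class, 90 to 100%, the gap was 15.5 points and iPSC averaged 77.0%. Grouped by female MEF the gap was 4.09 points in the lowest class, 14.3 points at 60 to 80%, 10.4 points at 80 to 90% and 14.6 points in the highest class. Few tiles were near full methylation: 10.4% and 8.38% of tiles exceeded 80% in iPSC, against 2.05 to 2.92% in female ESC.

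**Figure D2:**
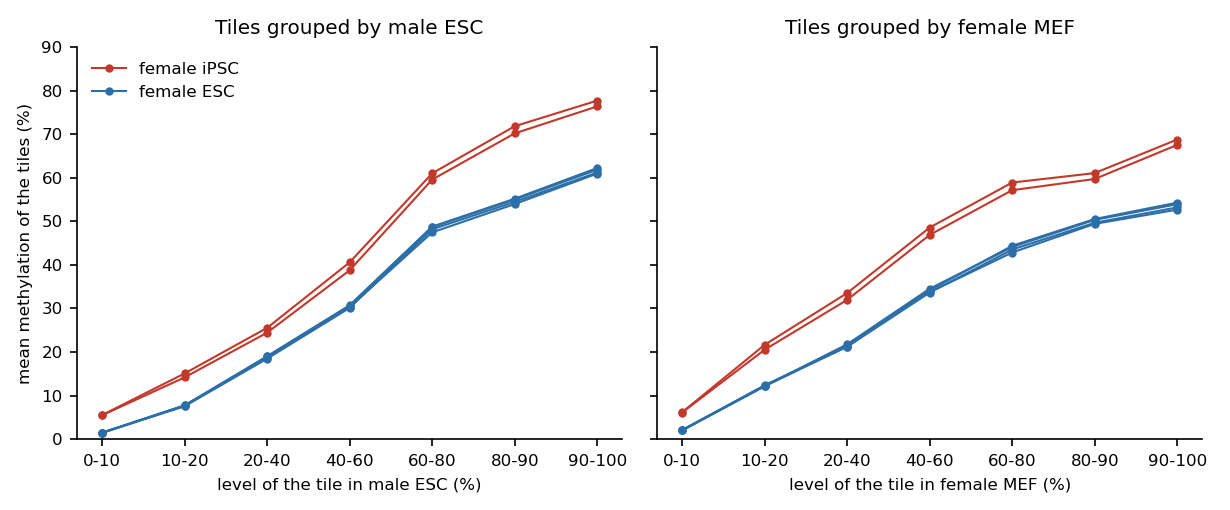
Mean methylation of tiles in percent, 1 line per library, for tiles grouped by their level in male ESC (left) or female MEF (right). The 2 iPSC lines run above the 4 female ESC lines in every class, from 4.04 points in the lowest class of male ESC to 15.5 points in the highest.

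Calls varied more with position than with chromosome. Tiles under 1 kb from a placed promoter start were called higher in 214 of 8548 cases (2.50%). The share was 19.8% of 3024 tiles at 1 to 5 kb, 26.0% of 6381 tiles at 5 to 20 kb, 23.7% of 13980 tiles at 20 to 100 kb and 18.0% of 21742 tiles beyond 100 kb. Near promoters iPSC averaged 7.24% and female ESC 2.76%, and at 5 to 20 kb iPSC averaged 46.1% and female ESC 32.9%. Among tiles with 3 or 4 CpGs 24.5% were higher, among those with 10 to 19 CpGs 2.56%, and among those with 20 to 29 CpGs 1 tile of 1028. By chromosome the share ran only from 15.7% (chromosome 3) to 20.4% (chromosome 5). Only 9008 of 31396 promoter windows (8007 genes) could be placed on mm9, so some tiles counted as distant may lie at a promoter that was not placed. The distance classes do not cover every tile. The 1725 tiles of chromosome 18, where no promoter was placed, are among those left out.

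**Figure D3:**
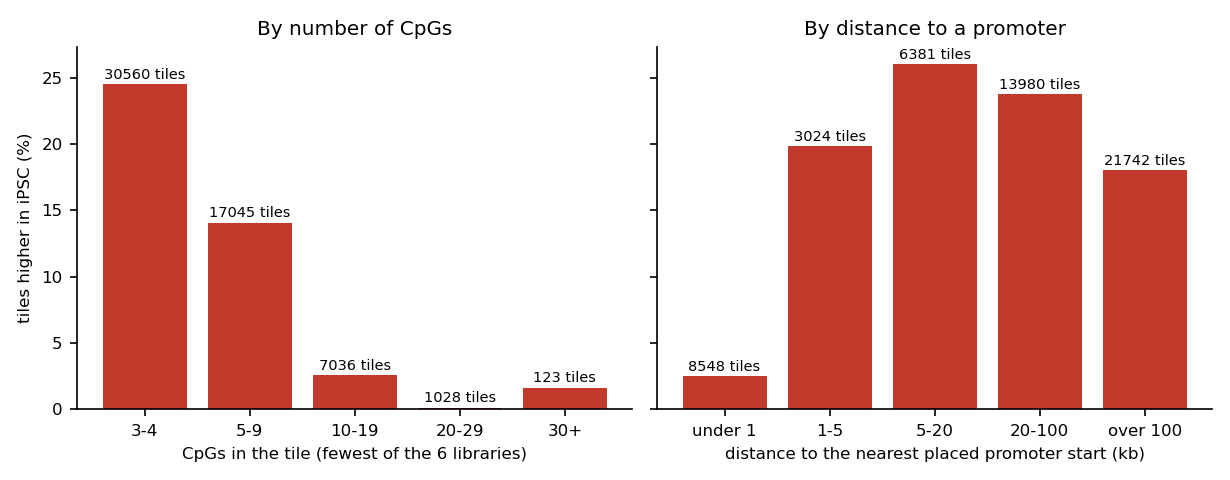
Percent of tiles called higher in iPSC, as bars from 0, by the number of CpGs in the tile (left) and by the distance in kb to the nearest placed promoter start (right), with the number of tiles above each bar. The share is lowest in tiles with many CpGs and within 1 kb of a promoter (2.50%), and highest at 5 to 20 kb (26.0%). Tiles of chromosome 18, where no promoter was placed, are not in the right panel.

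Runs of called tiles with gaps of at most 10 kb numbered 1067 for higher, holding 2413 of the 10079 tiles, and 1 for lower, holding 2 of the 187. The longest had 7 tiles. One, at chr2:91475001-91492000, contains promoters of Arhgap1, a GTPase activator, and Zfp408, a zinc finger gene. Its 7 called tiles, of 9 tested, averaged 56.0% and 50.7% in iPSC, against 24.1%, 25.5%, 23.3% and 30.8% in female ESC. Female MEF averaged 93.3% at these called tiles. Over shared CpGs 6 of its 7 tiles were called, and with the library type term none. The other, at chr4:141019001-141036000, lies between the placed promoters of Zbtb17, which encodes the transcription factor Miz1, and Spen, a transcriptional repressor needed for silencing by Xist. Its 7 called tiles, of 10 tested, averaged 61.3% and 57.3% in iPSC, against 28.3%, 28.1%, 29.9% and 27.3% in female ESC. Of its called tiles 5 of 5 tested were called over shared CpGs, and 2 with the library type term. Runs of 6 called tiles lay at chr8:124057001-124091000, chr11:58803001-58827000 and chr11:115744001-115767000. The called tiles of the first averaged 65.3% and 59.7% in iPSC, against 26.1 to 43.1% in female ESC.

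Promoters changed rarely. Of 5977 tiles that hold a placed promoter start, 127 were higher in iPSC (2.12%) and 6 lower (0.100%). Of the 87 higher ones with 3 shared CpGs, 64 were called again over those, and 11 were called in all 3 fits. In female ESC 5456 promoter tiles averaged under 5%. Their medians were 3.71% in iPSC and 0.561% in female ESC, and 49 of the 5456 were higher in iPSC, against 127 of all 5977. Because these tiles were chosen by their female ESC level, a higher iPSC median is partly built in. For the same reason none of them could be called lower.

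Dnah6 encodes a heavy chain of axonemal dynein, a motor of cilia and flagella. Its tile, chr6:73171001-73172000, was at 76.2% and 73.5% in iPSC, against 11.1%, 11.9%, 18.2% and 17.0% in female ESC, a difference of 60.3 points (adjusted p = 2.65e-07), and was called in all 3 fits. Each library had 171 or more reads in the tile. All 7 shared CpGs were at least 20 points higher in iPSC. The 4 capitalised CpGs of the printed window, before the start, gave 75.4% and 71.0% in iPSC, against 2.02%, 0%, 2.67% and 0% in female ESC. They were also low in the other cells, at 10.7% and 3.17% in male ESC and 1.22 to 3.51% in the 4 female MEF libraries. The other 3 shared CpGs of the tile, after the start, were at 80% or more in iPSC, at 8.70 to 40% in female ESC and at 50 to 85.5% in male ESC.

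Slc30a3 encodes a transporter that loads zinc into synaptic vesicles. The tile at chr5:31410001-31411000 was at 92.3% and 63.8% in iPSC, against 10.6%, 10.7%, 13.6% and 9.86% in female ESC (66.9 points, adjusted p = 7.62e-05). It was called in all 3 fits, with 39 or more reads in each library, and every one of its 3 shared CpGs was higher. Here the other cells were also high: male ESC had 89.3% and 80.7%, female MEF 79.0 to 92.0%, and male MEF 96.0% and 74.1%. A second placed promoter window of the gene, at chr5:31395851-31396150, was at 4.47% and 1.32% in iPSC, against 0 to 4.65% in female ESC.

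Ppp1r26 encodes a regulatory subunit of protein phosphatase 1. Its tile, chr2:28302001-28303000, was at 40.7% and 40.1% in iPSC, against 1.36 to 2.75% in female ESC (38.3 points, adjusted p = 4.59e-08), and was called in all 3 fits. In the printed window 3 of the 4 shared CpGs carried the difference, at 58.8 to 66.0% in iPSC and at most 13.3% in female ESC. The CpG at position 28302531, among them, had 0 methylated reads of 100 and 97 in iPSC, and none in female ESC. Traip, a ubiquitin ligase at replication forks, had 41.0% and 42.4% in iPSC, against 0.826 to 2.44% in female ESC (40.3 points, adjusted p = 1.26e-06), again in all 3 fits and at 4 of 4 shared CpGs. Gm16254 was called in all 3 fits too, with 62.7% and 54.7% in iPSC, against 7.50 to 20.6% in female ESC.

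**Figure D4:**
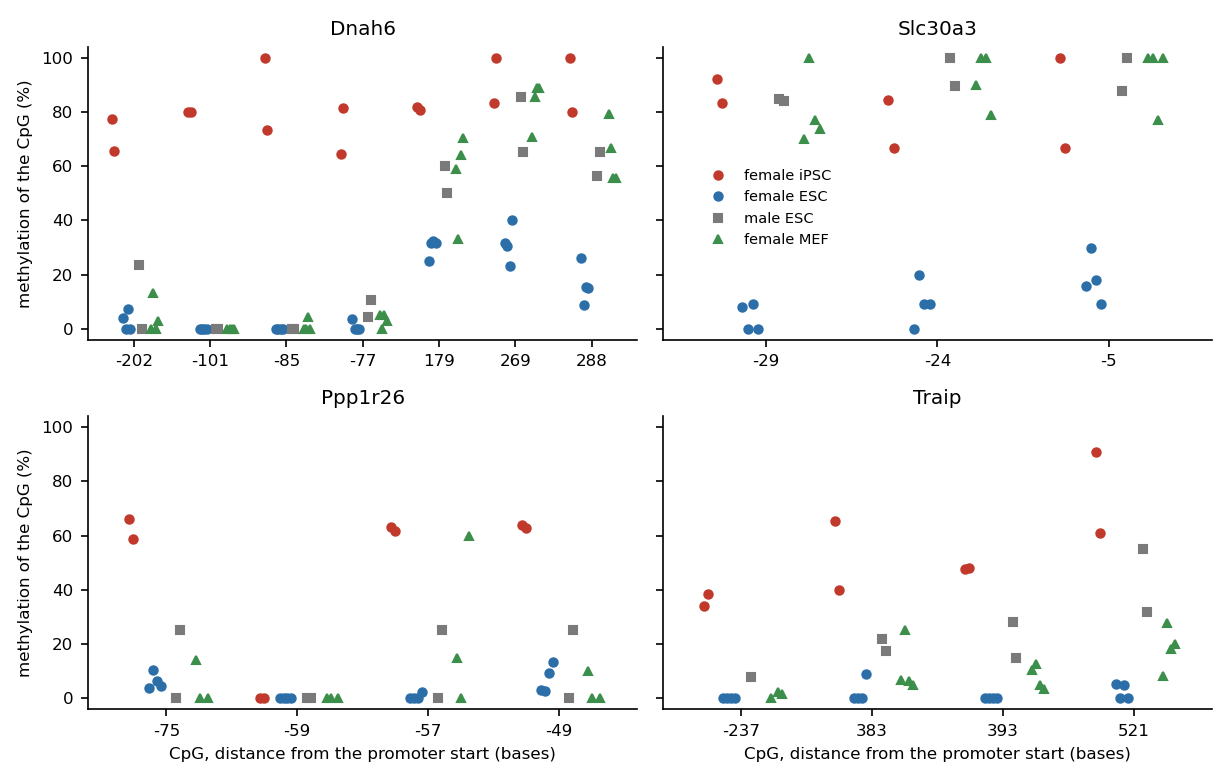
Methylation in percent of each shared CpG in the promoter tiles of Dnah6, Slc30a3, Ppp1r26 and Traip, by distance in bases from the promoter start (categories, not to scale), 1 point per library, with male ESC and female MEF for reference. At Dnah6, Slc30a3 and Traip every CpG is higher in both iPSC libraries than in all 4 female ESC libraries, and at Ppp1r26 1 CpG of 4 is at 0 in both groups.

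Other promoter tiles were called over all CpGs and over shared CpGs, with a thinner base. Mcub, an inhibitory subunit of the mitochondrial calcium uniporter, was at 50.5% and 47.4% in iPSC, against 0 to 14% in female ESC, and was not called with the library type term. Pklr, the pyruvate kinase of liver and red cells, was at 53.4% and 44.5% in iPSC, against 10 to 31.4% in female ESC, and lost its call without iPSC 1. At Smad5, a transducer of BMP signals, the difference of 45.5 points rested on 1 of 3 shared CpGs, at Cstf2t, a polyadenylation factor, on 2 of 3, and at Fhdc1, a formin-like gene, on 2 of 4. Of the lower promoter tiles, Ldhd, a D-lactate dehydrogenase, was at 40.4% and 32.1% in iPSC, against 47.9 to 73.2% in female ESC, and lost its call without iPSC 1, iPSC 2 or ESC 4. The tile of Tnp1, a sperm chromatin protein, and 1700027A15Rik was at 26.2% and 27% in iPSC, against 46.8 to 55.3% in female ESC, and lost its call without either iPSC library.

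The largest difference upwards, 74.0 points, lay at chr3:61963001-61964000, with 74.7% and 87.9% in iPSC, against 4.86%, 10.5%, 6.39% and 7.12% in female ESC. MEF 3 and 4, of the same library type as iPSC, had 89.4% and 92.8% there, while MEF 1 and 2 had 10.5% and 6.34%. With the library type term the difference was -1.85 points, and the fit to all 18 libraries without that term did not call the tile either (adjusted p = 0.0750). The next, at chr7:70948001-70949000, had 86.4% and 87.5% in iPSC, against 6.25 to 19.8% in female ESC. Type C MEF had 48.2% and 42.9% there, against 96.9% and 94.5% in MEF 1 and 2. This tile was not tested with the library type term. The tile at chr5:150411001-150412000 stood otherwise. It had 79.6% in both iPSC libraries, against 8.53%, 6.02%, 7.61% and 16.0% in female ESC, while all 4 female MEF libraries were at 91.2 to 92.2%. The tile was called in all 3 fits, with a difference of 70.0 points over all CpGs of the 6 libraries. The nearest placed promoters are those of Medag, a gene of fat cell differentiation, and of the heat shock protein Hsph1.

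Of the other largest higher tiles, 3 had no 3 shared CpGs: chr13:120277001-120278000, at promoters of 3110070M22Rik and Tmem267, chr4:47069001-47070000 and chr5:122642001-122643000. Their differences were 69.9, 68.9 and 66.7 points. With the library type term the second was 37.3 points and not called (adjusted p = 0.147), and type C MEF had 34.1% and 37.2% there, against 6.25% and 6.49% in MEF 1 and 2. At the first of the 3 iPSC had 73.2% and 76.1%, against 1.55 to 9.67% in female ESC, with 44.8 to 57.0% in male ESC and 48.3 to 67.0% in female MEF. The male MEF libraries had 46.3% and 75.7%. At chr14:64127001-64128000 (66.8 points) the call was lost without iPSC 2. The difference there was 39.7 points over shared CpGs and 3.07 points with the library type term (adjusted p = 0.927), and type C MEF had 86.4% and 94.6%, against 25.5% and 14.2% in MEF 1 and 2. Away from promoters, chr12:70649001-70650000, chr2:103936001-103937000 and chr14:35409001-35410000 were called in all 3 fits. Over all CpGs of the 6 libraries the differences were 62.7, 62.1 and 47.6 points. With the library type term the fitted differences were 64.7, 82.0 and 46.9 points. The 82.0 points exceed every level measured at that tile in these 6 libraries. At these 3 tiles the iPSC libraries had 66.5% or more and the ESC libraries 40.5% or less. Near fully methylated in female MEF, chr7:71091001-71092000 had 87.5% and 93.7% in iPSC, against 25 to 29.9% in female ESC.

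Some of the largest higher tiles averaged under 20% in female MEF. The tile at chr15:97078001-97079000 lay 0.3 kb from the placed promoter start of Amigo2, a cell adhesion gene. It had 74.0% and 76.5% in iPSC, against 6.93 to 14% in female ESC. Type C MEF had 27.4% and 25.1% there, against 7.22% and 0.829% in MEF 1 and 2, and the difference of 64.5 points was 31.3 points with the library type term, still called. The tile at the promoter of Kazn, a protein of cell junctions, and Gm35531 had 48.8% and 76.2% in iPSC, against 0 to 0.817% in female ESC. At chr12:81564001-81565000 iPSC had 58.0% and 56.7%, against 0 to 2.46% in female ESC. None of these 3 had 3 shared CpGs, so each library may have read other CpGs of the tile. At chr15:59615001-59616000, with 3 shared CpGs, iPSC had 69.9% and 63.1%, against 0 to 18.5% in female ESC.

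Among the dense tiles 2 were called, both higher. At chr13:99125001-99126000 iPSC had 30.3% and 20.7%, against 0 to 0.390% in female ESC, and 6 of 29 shared CpGs were 20 points higher. At chr4:133523001-133524000 iPSC had 26.9% and 20.7%, against 1.52 to 2.90% in female ESC, with 6 of 8 shared CpGs. Type C MEF had 10.9% and 10.8% at the second tile, against 4.13% and 1.63% in MEF 1 and 2. Neither was called with the library type term. With reads capped at 50 per CpG both fell under 20 points, at 16.8 points each. The second also lost its call without iPSC 1 (18.8 points) and after subtraction of the floor (19.3 points).

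The largest difference downwards was at chr6:134132001-134133000, with 0% and 1.96% in iPSC, against 83.3%, 65.1%, 76.1% and 81.6% in female ESC (-75.5 points, adjusted p = 1.71e-05). All 3 shared CpGs were lower, and each library had 38 or more reads. MEF 4, of type C like iPSC, had 0% there, while MEF 1 and 2 had 88.2% and 90.2%. The same held at Gatm, the first enzyme of creatine synthesis, where iPSC had 1.46% and 3.87%, female ESC 39.8 to 67.9%, type C MEF 0% each, and MEF 1 and 2 59.8% and 89.8%. At chr9:47143001-47144000 (-66.1 points) and chr1:8058001-8059000 (-56.0 points) iPSC had at most 25% and female ESC at least 68.2%, and type C MEF had too few reads for a value. At chr4:66386001-66387000 (-54.7 points) iPSC had 7.50% and 7.41%, against 57.5 to 67.8% in female ESC, and MEF 3, of type C, had 0%. Neither this tile nor that of Gatm had 3 shared CpGs.

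At some other lower tiles type C MEF did not share the low level. At chr1:90509001-90510000 iPSC had 32.9% and 34.1%, against 70.2 to 92.2% in female ESC, and female MEF 81.8 to 89.3%. Male MEF had 100% and 44.4% there. At chr14:20306001-20307000 (-54.1 points) female MEF had 68.2 to 76.4% and male MEF 78.5% and 83.3%, but the call was lost without iPSC 1. The tile at chr19:53772001-53773000 (-46.1 points) lost its call without either iPSC library, at -46.4 and -45.8 points, and with the library type term, at -37.3 points (adjusted p = 0.0559). Female ESC libraries ran there from 25% to 81.4%. Of the 13 tiles lower in all 3 fits 6 were examined, and chr2:55481001-55482000, chr5:138162001-138163000 and chr16:90950001-90951000 kept the call when any 1 library was left out. The first had 12% and 20% in iPSC, against 42.5 to 50% in female ESC. The second had 42.2% and 31.7% in iPSC, against 61.0 to 77.0% in female ESC. Other cells were low at this tile too. Type C MEF had 45.7% and 47.3%, MEF 1 and 2 had 31.5% and 61.3%, and male ESC had 45.9% and 36.9%. The third had 45.9% and 40% in iPSC, against 55.3 to 75.2% in female ESC.

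Imprinted genes are expressed from 1 parental copy, and their control regions are methylated on 1 parental copy. Of 30 imprinted genes listed, 6 had a measured promoter tile, and none reached the 20 point rule. Their median difference was 8.21 points, against 3.08 over all promoter tiles and 7.53 over all tiles. Mcts2, an imprinted retrogene whose window is printed above, had 7.96% and 23.0% in iPSC, against 0.326%, 0.697%, 0.366% and 0% in female ESC (15.2 points, adjusted p = 0.000148). Plagl1, a zinc finger growth regulator, had 11.1% and 19.4% in iPSC, against 0.370 to 3.05% in female ESC (13.7 points, adjusted p = 0.000176). Zrsr1, a splicing factor related retrogene, had 9.47% and 18.4% in iPSC, against 0.756 to 1.97% in female ESC (12.6 points, adjusted p = 0.000172). Without iPSC 1 Mcts2 passed the rule, at 22.7 points (adjusted p = 0.0414). In all 3 iPSC 2 lay above iPSC 1, and the groups did not overlap over all CpGs. Of all promoter tiles, 83.2% had iPSC higher without overlap. Male ESC had 20.8 to 49.6% at these 3 tiles and female MEF 34.5 to 50.1%, so both iPSC libraries stayed below female MEF. Over shared CpGs the groups stayed apart at Mcts2 and Zrsr1. At Plagl1, where libraries read 5 to 32 CpGs, they overlapped over the 5 shared ones. There iPSC had 11.1% and 19.4% and ESC 3 had 11.4% (12.4 points, adjusted p = 0.0506). The 8 capitalised CpGs of Mcts2 gave 9.30% and 24.1% in iPSC, against 0 to 0.930% in female ESC. The growth factor receptor gene Igf2r and the adaptor gene Grb10 differed by 3.78 and 3.39 points, and Gnas, which encodes a G protein subunit, by 3.38 points, sizes near the floor. The Grb10 and Gnas tiles were low in female MEF too, at 1.32 to 2.06% and 0.179 to 1.74%. At Igf2r female MEF had 23.1 to 42.1%, against 6.40% and 5.98% in iPSC.

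**Figure D5:**
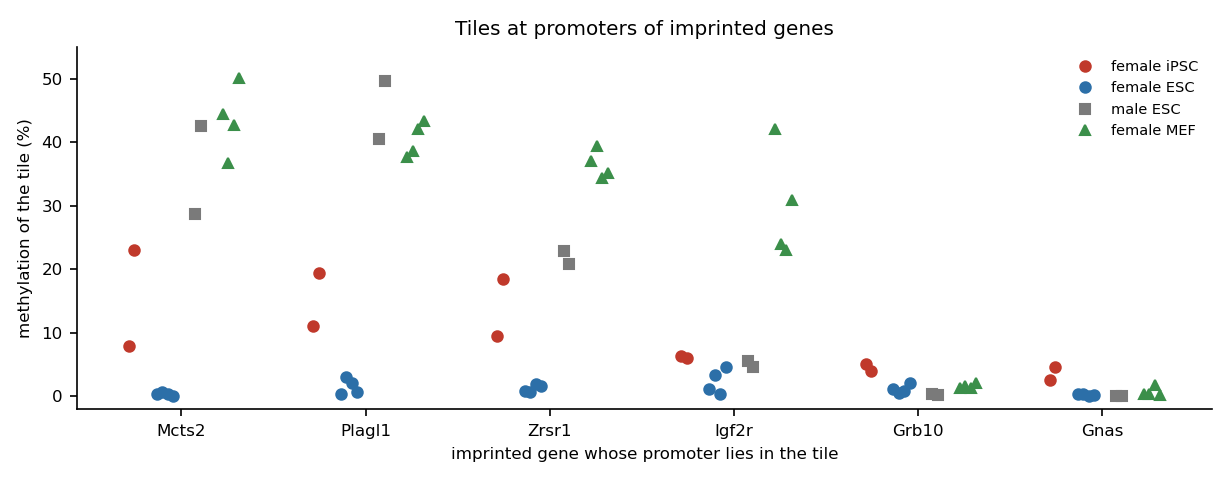
Methylation in percent of the promoter tiles of 6 imprinted genes, 1 point per library. At Mcts2, Plagl1 and Zrsr1 the 2 iPSC libraries (7.96 to 23.0%) lie above the 4 female ESC libraries (at most 3.05%) and below the 4 female MEF libraries (at least 34.5%).

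Of 20 pluripotency genes listed, 4 had a measured promoter tile and none was called, with a median difference of 2.69 points. Sox2, a transcription factor of the pluripotent state, had 2.50% and 3.41% in iPSC, against 0%, 0%, 1.11% and 0% in female ESC. The transcription factor genes Klf4 and Klf2 were alike, at 2.52 to 3.46% in iPSC and at most 2.45% in female ESC. Tfcp2l1, which helps to hold the naive state, had 6.34% and 10.2% in iPSC, against 0 to 0.683% in female ESC (7.99 points, adjusted p = 0.000189), without overlap. After subtraction of the floor 4.81 points were left (adjusted p = 0.0111).

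Germline genes, many of which are silenced by promoter methylation in somatic cells, had 7 tiles measured of 20 genes and none called (median 5.98 points). With the library type term Dazl, an RNA-binding protein of germ cells, was called higher (20.5 points, adjusted p = 0.0342), against 5.41 points without it. The RNA helicase gene Ddx4 had 26.6% and 19.4% in iPSC, against 12.5 to 20.6% in female ESC and 59.1 to 75% in female MEF. Mael, which acts in the piRNA pathway, had 17.3% and 17.2% in iPSC, against 8.15 to 21.5% in female ESC and 72.6 to 89.9% in female MEF. Groups overlapped at both tiles. Over the 5 shared CpGs of the Mael promoter window, iPSC had 42.3% and 40.4%, against 17.4 to 29.4% in female ESC. At the Ddx4 promoter window the groups overlapped. Asz1, another piRNA pathway gene, had 43.2% and 55.6% in iPSC, against 28.2 to 40% in female ESC, and Tex101, a sperm surface gene, had 75.6% and 73.4% in iPSC, against 50.6 to 69.0% in female ESC. Of these 2 only Tex101 had an adjusted p under 0.05 (0.00976, against 0.0741 for Asz1).

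Of 11 genes of the methylation machinery 7 tiles were measured and 1 was called. Tet3, a Tet oxygenase, had 32.0% and 40.5% in iPSC, against 0.528 to 2.32% in female ESC (35.0 points, adjusted p = 1.33e-05). The difference rested on 1 of 3 shared CpGs, at position 83391365 of chromosome 6, with 45.3% and 58.8% in iPSC, against 0 to 10.7% in female ESC. At that CpG the 2 type C MEF libraries had 64.7% and 0%. With the library type term the Tet3 difference was 2.56 points and the call was lost (adjusted p = 0.441). Dnmt3b had 3.22% and 4.03% in iPSC, against 0 to 0.794% in female ESC, and Uhrf1, Tet1 and Dnmt1 differed by 2.56, 3.14 and 6.31 points. Tdg, which excises oxidised methylcytosine, had 8.12% and 6.03% in iPSC, against 0.202 to 1.29% in female ESC. With the library type term Tdg was called instead, at a fitted difference of 78.4 points (adjusted p = 0.0049), which is far above every level measured at that tile in these 6 libraries. Of 15 fibroblast genes 2 were measured. Twist2, a mesenchymal transcription factor, had 18.6% and 15.4% in iPSC, against 1.32 to 4.35% in female ESC and 0.224 to 2.43% in female MEF (14 points, adjusted p = 0.000104). Male ESC had 8.87% and 16.1% there. The Twist2 difference was 10.1 points over 3 shared CpGs (adjusted p = 0.0923) and 5.81 points with the library type term (adjusted p = 0.554). The intermediate filament gene Vim differed by 4.06 points.

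Libraries of a group were also set against each other. Over the 48257 tiles with 3 shared CpGs, iPSC 1 and 2 were at least 20 points apart at 1.68%, and pairs of female ESC libraries at 6.85 to 9.57%. At the 6870 tiles with 100 or more reads in every library these shares were 0.0728% for iPSC and 0.146 to 0.364% for female ESC.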

How the data were processed

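RRBS was run by the authors on 18 mouse samples; 6 are compared here. The deposited tables give per CpG and strand a count of methylated and of all reads, and a score, which was not used; this meaning of the deposited columns was read from the values. The build is mm9, per the submitters' processing notes. The sources used here name no aligner, caller or filter, so effects of mapping or strain differences were not examined.

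Counts of both strands were added, and methylated and total reads summed over CpGs with 5 or more reads per 1 kb tile. Each tile was fitted by quasi-binomial logistic regression on group, with the dispersion moderated across tiles (at least 1) and F tests adjusted by the Benjamini-Hochberg method. A tile was called at an adjusted p under 0.05 and 20 points. Library values were compared by 2-sided exact permutation tests. The model was also run on simulated counts with known differences, and the outcome is not reported here. Tools were R 4.3.3 with limma 3.58.1, and Python 3.11.15 with scipy 1.17.1, numpy 2.4.6 and pandas 2.3.3. Read numbers limit the precision of a tile; the files carry no molecular identifiers, so reads need not be independent molecules.

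Promoter windows of RefSeq were placed on mm9 where the spacing of their CpGs matched that of the files, with 8 or more matching CpGs, then 4 or more between placed neighbours. Mirrored windows as decoys were placed 13 times in the first step and 0 times in the second. No promoter of chromosome 18 was placed.

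Tiles named were, 1 per 100 kb among called tiles without overlap, the 8 largest in each direction, the largest dense tiles, and the 4 largest each under 20% and over 80% in female MEF, with the longest runs and all tiles at promoters of 5 gene lists. Tiles called in more than 1 fit, and single CpGs, were chosen after their values were seen. Members and lists were chosen with earlier results of these data known. Alternatives were other minimums of reads and CpGs, shared CpGs, a cap of 50 reads per CpG, floor subtraction, a replicate block, all 18 samples, a library type term, limma, other differences, and leaving out each library. Replicate numbers did not pair the libraries (correlation of deviations 0.0046 and 0.0062). Sex chromosomes were not analysed here.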

Additional observations from a re-analysis of the deposited data

Results flagged for a closer look

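In 6 of 53 sets of 4 female ESC values looked at (each tile named by rule or in a gene list), 1 library lay so far from its nearest neighbour that the gap, as a share of the whole range, passed the critical value of 0.829; chance alone gives about 1 in 20 such sets. At 5 of the 6 all ESC libraries were under 3%.

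At the Sox2 tile ESC 3 had 1.11% and the others 0% (share 1). At the Tet1 tile ESC 1 had 0.901% and the others 0% (share 1). At the Gnas tile ESC 3 had 0%, the others 0.260 to 0.313% (share 0.830), and at the Dnmt3b tile ESC 4 had 0.794%, the others at most 0.136% (share 0.829). At the dense tile chr4:133523001-133524000 ESC 2 had 2.90%, the others 1.52 to 1.76% (share 0.831). At the tile of Sycp1, a gene of the meiotic synaptonemal complex, iPSC had 49.7% and 45.4%, and ESC 4 had 38.6% where ESC 1 to 3 had 45.6 to 46.8% (share 0.858). The iPSC group, with 2 libraries, was not looked at in this way.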

How the results depend on the processing

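Mean level, dense tile and floor differences kept their direction under each alternative run, at 8.04 to 16.4 points for the level, 0.723 to 5.69 for dense tiles and 3.19 to 3.58 for the floor. The level difference was widest over each library's own CpGs. Counts of tiles, against 10079 higher and 187 lower, moved by over 1.5 times under these settings. A minimum of 10 reads gave 3798 higher and 79 lower among 25492 tiles, and 5 CpGs per tile 2584 and 37 among 25232. A minimum of 3 reads gave 286 lower. Leaving out 1 library gave 4542 to 12425 higher and 70 to 210 lower, with the low ends from leaving out an iPSC library. All 18 samples gave 3650 and 79, with a library type term 1094 and 56, among 32195 tiles. A difference of 10 points gave 19608 and 470, and 30 points 2673 and 53. Chosen after seeing the data, a call also over shared CpGs left 102 lower, and a call in all 3 fits 497 and 13. The higher tile chr3:61963001-61964000 reversed to -1.85 points with the library type term; type C MEF were high there. Fewer tiles or libraries enter several of these settings; beyond that the cause was not tested. Under the replicate block, on numbers that pair nothing, counts were 7639 and 129, and the level difference 10.3 points. Of the tiles named by rule, the library type term ended the call at 7 of 12 tested, the reversed one among them, and leaving out iPSC 1 at 3 of 24.

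Depth limits sparse tiles most: with 3 or 4 CpGs a few reads move a level by 20 points. The smallest p of 2 libraries against 4 is 0.0667.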

Other observations

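The reprogramming intermediates enter no comparison here. At tiles higher in iPSC the median was 76.6% in SSEA1+ (4921 tiles read) and 80.5% in SSEA1- (7874 tiles), with 81.9% in female MEF. At tiles lower in iPSC it was 73.8% in SSEA1+ (127 tiles) and 79.5% in SSEA1- (171 tiles). The floor at tiles unmethylated in male cells was 0.385% and 0.318% of reads in SSEA1+ and 0.294% and 0.226% in SSEA1-, all of library type B.

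Of the tiles higher in iPSC, 110 were under 20% in female MEF and at 50% or more in male ESC (1.62% of 6773, against 0.726% of all tiles read there). Another 21 were at 50% or more in female MEF and under 20% in male ESC (0.310%, against 0.806% of all tiles).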
